A study of Mus musculus with 13 samples.

Results

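Respiratory complex I genes were followed in RNA sequencing counts from the CA1 region of mouse hippocampal tissue cultures. The genes were chosen by symbol: all 55291 symbols counted were searched for those that start with Ndufa, Ndufb, Ndufc, Ndufs or Ndufv, and symbols that end in -ps were left out. This gave 49 genes, of which 36 encode subunits of complex I, 8 are Ndufaf assembly factors, 3 are extra gene copies (Ndufa11b, Ndufb4c and Ndufs6b) and 2 carry a complex I symbol but lie outside the complex (Ndufa4, a subunit of complex IV, and its relative Ndufa4l2).

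Each of the 13 libraries came from CA1 cut with a scalpel from a single culture of wildtype C57BL/6 mice, made on postnatal day 4 to 5 and grown in vitro for 18 days or longer. The groups were 5 libraries from non-lesioned control cultures, 4 from cultures 3 days after Schaffer collateral lesion (SCL), which cuts the axons that run from CA3 to CA1, and 4 from cultures 3 days after entorhinal cortex lesion (ECL), which cuts the perforant path. All groups share the slice preparation, which itself severs axons, and the culture medium with horse serum. The titles name CA1 as the tissue, but the deposited extraction protocol describes dentate gyrus. All 5 CA1 markers were high enough to test, against 1 of 4 dentate markers. By the column headings 2 of the 5 controls were male, as were 1 of the 4 libraries after SCL and 3 of the 4 after ECL, so sex was unevenly spread. Library totals were 14371152 to 21092612 counts for the controls, 16405517 to 56786613 for SCL and 20210165 to 46449937 for ECL.

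Complex I is the largest enzyme of the respiratory chain. It takes electrons from NADH, passes them along a flavin and a row of iron-sulfur clusters in a peripheral arm that reaches into the mitochondrial matrix, hands them to ubiquinone, and pumps protons through a membrane arm. Core subunits carry out this chemistry and are encoded partly in the nucleus (some of the Ndufs and Ndufv genes) and partly in the mitochondrion (mt-Nd genes). Accessory subunits surround the core, and assembly factors build the modules without staying in the enzyme. In hippocampal neurons complex I supplies much of the proton gradient used for ATP synthesis.

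After both lesions the genes did not move as a block. Ndufv2, Ndufs8, Ndufa11 and Ndufab1 rose after both lesions, by 1.95-fold to 2.33-fold after SCL and by 2.04-fold to 2.41-fold after ECL. Ndufa1 and Ndufc1 fell after ECL, to 0.585 and 0.548 of the control level. These 6 genes kept these calls under all 22 alternative ways of running each comparison, while every other call was lost under at least 1 of them.

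Levels are given as counts per 1000000 counts (CPM), taken over the genes tested and scaled between libraries with TMM factors. A gene was tested when its mean normalized count in the libraries compared was at least 150, which 47 of the 49 genes reached. Differences are log2 fold changes from edgeR's quasi-likelihood test with their standard error (SE), and a gene was called when its p-value, adjusted over all genes tested, was below 0.05. Both lesions were compared with the same 5 controls, so their values are given side by side and do not support each other independently. The titles separate the libraries of a group by replicate number only, while the column headings also give sex and a number. The main fits held no term for these, so p-values measure the spread between cultures of both sexes.

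After SCL 15 of the 47 genes tested rose and 0 fell (edgeR, with 23 at an unadjusted p below 0.05, against 38.8% of all genes). Of all 11438 genes tested, 24.9% were called, 13.1% as higher and 11.8% as lower. After ECL 15 rose and 5 fell, with 25 at an unadjusted p below 0.05, against 40.3% of all genes. Here 27.8% of all 11212 genes tested were called, 15.2% as higher and 12.5% as lower. The SCL libraries lay wholly above the controls for 15 genes, against 12.1% of all genes, and wholly below for 0, against 11.5%. The ECL libraries did so for 14 genes, against 12.8%, and lay below for 6, against 12.2%. The median log2 fold change of the 36 subunit genes was 0.37 after SCL and 0.34 after ECL, against 0.01 and -0.01 over all genes tested. The same 12 genes rose after both lesions: Ndufs3, Ndufs8, Ndufv1, Ndufv2, Ndufs4, Ndufa10, Ndufa11, Ndufb10, Ndufab1, Ndufaf3, Ndufaf6 and Ndufaf8. The comparisons share their controls, and the share of all genes that rose after both is not given. This overlap thus cannot be set against that of other genes. Ndufa3, Ndufa9 and Ndufb7 passed the test after SCL alone, and Ndufb9, Ndufc2 and Ndufs7 after ECL alone, but none of these 6 was called in the direct test between the lesions.

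Complex I genes are short, and short genes rose as a class in these libraries. The median exon length of the subunit genes was 1644 bases, against 4638 over all genes tested after SCL and 4662 after ECL, and 28 of the 36 subunit genes lay among the shortest 25% of genes tested. Among those short genes the median log2 fold change was 0.29 after SCL and 0.33 after ECL over all genes, and 27.9% and 33.8% of them were called higher, 5.95% and 8.41% lower. Of all 47 complex I genes tested, 36 were that short. Among these 36, 33.3% were called higher after SCL and 36.1% after ECL, 0% and 11.1% lower, and their median log2 fold changes were 0.34 and 0.33. The share that rose is thus near that of other short genes. Within the 36 subunit genes, the Spearman correlation of log2 fold change with exon length was 0.24 (SCL) and 0.15 (ECL). Over all genes tested it was -0.37 and -0.35. Whether length accounts for the changes of the subunit genes was not tested. An offset for exon length and GC content in each library left 5 complex I genes higher after SCL and made 6 lower, where 11.5% and 12.5% of all genes were so called. For ECL the offset gave 7 higher genes and 11 lower ones, where 14.5% and 15.0% of all genes were so called. Ndufv2, Ndufs8, Ndufa11 and Ndufab1 were called higher after both lesions with the offset, Ndufb7 after SCL, and Ndufa10, Ndufaf3 and Ndufb5 after ECL, while the other complex I genes that rose without it lost their call. The median of the subunit genes then became 0.09 after SCL and -0.03 after ECL.

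**Figure D1:**
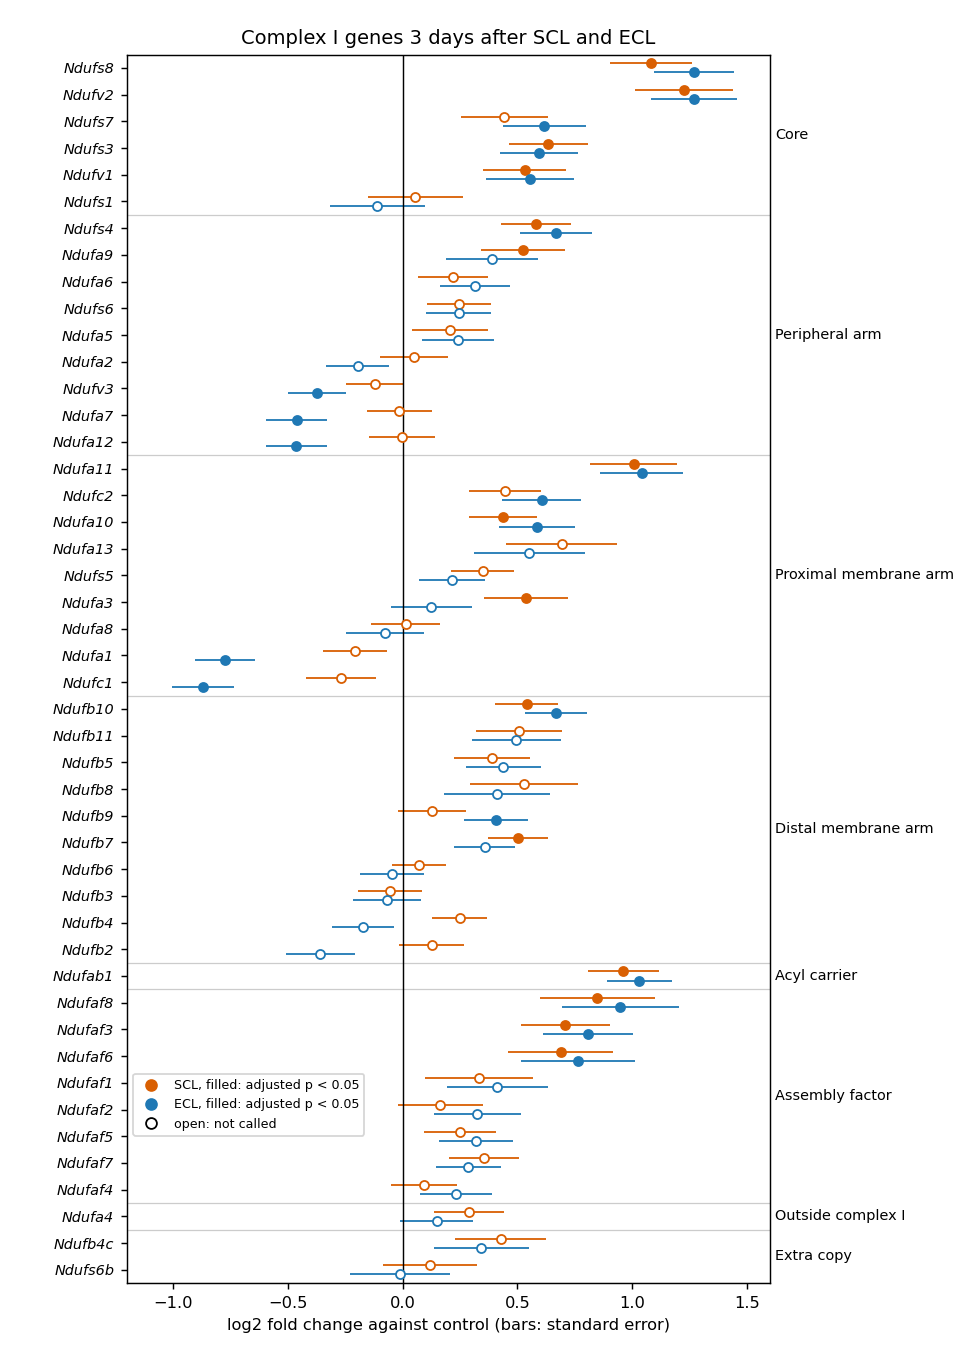
Log2 fold change against the 5 controls (horizontal axis) of 46 of the complex I genes tested, by role, with bars for the standard error, after SCL (orange) and ECL (blue). Filled points have an adjusted p below 0.05. Ndufs8, Ndufv2, Ndufa11 and Ndufab1 stand near 1 after both lesions, and Ndufa1 and Ndufc1 stand at -0.77 and -0.87 after ECL.

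**Figure D2:**
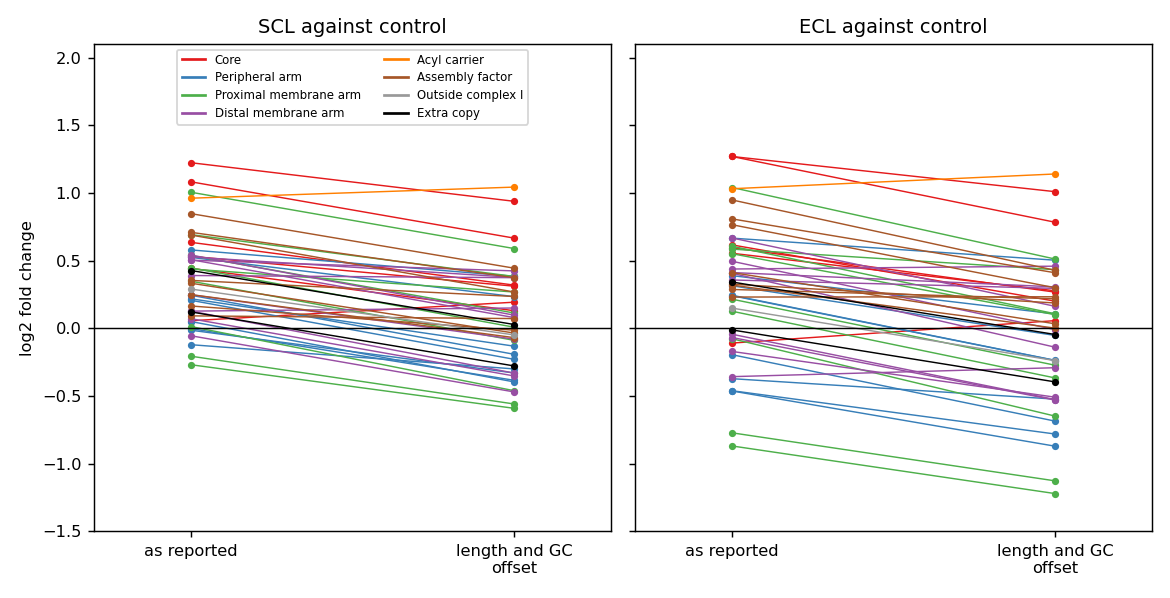
Log2 fold change (vertical axis) of the same 46 genes without (left) and with (right) an offset for exon length and GC content, for SCL and ECL, colored by role. Most lines fall, and the subunit median moves to 0.09 (SCL) and -0.03 (ECL) from 0.37 and 0.34, while Ndufab1, whose annotated exons are long, moves up.

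Among the 7 nuclear-encoded core subunits, 4 rose after SCL and 5 after ECL. Of all genes 13.1% and 15.2% did so, and of short genes 27.9% and 33.8%. The core subunits had median log2 fold changes of 0.53 and 0.60. Ndufv2, which holds an iron-sulfur cluster in the module that takes up NADH, was at 332, 342, 206, 223 and 263 CPM in control replicates 1 to 5. It was at 837, 595, 700 and 417 CPM after SCL and at 760, 765, 511 and 585 CPM after ECL. All lesioned libraries lay above all controls, and the spread was widest after SCL. The log2 fold change of Ndufv2 was 1.22 (SE 0.21, edgeR adjusted p = 0.00291) after SCL and 1.27 (SE 0.19, edgeR adjusted p = 0.000442) after ECL.

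Ndufs8 carries a pair of iron-sulfur clusters close to the ubiquinone site. It was at 110, 119, 96.5, 68.4 and 90.6 CPM in controls, at 249, 192, 222 and 158 CPM after SCL, and at 295, 213, 220 and 201 CPM after ECL. Again no lesioned library overlapped the controls. Its log2 fold change was 1.08 (SE 0.18, edgeR adjusted p = 0.00243) after SCL and 1.27 (SE 0.17, edgeR adjusted p = 0.000288) after ECL. With the length and GC offset it was 0.67 and 0.78, and that of Ndufv2 0.94 and 1.01, and all 4 values stayed called.

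The promoters of these genes, whose log2 fold changes were the highest of the complex I genes without the offset (with it Ndufab1 was highest, at 1.04 and 1.14), are shown from the 250 bases before the RefSeq start in GRCm38.p6. Both lie on the minus strand and hold no exon annotated in GENCODE M21. Capitals mark matches to a GC box (GGGCGG) in Ndufv2 and to a CCAAT box (CCAAT) in Ndufs8.
Ndufv2 at chr17:66101560-66101809: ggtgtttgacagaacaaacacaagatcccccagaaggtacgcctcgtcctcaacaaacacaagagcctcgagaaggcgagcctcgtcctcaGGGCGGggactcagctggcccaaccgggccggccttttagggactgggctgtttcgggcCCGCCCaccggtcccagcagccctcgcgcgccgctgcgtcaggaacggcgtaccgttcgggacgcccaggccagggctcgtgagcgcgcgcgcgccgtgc
Ndufs8 at chr19:3912775-3913024: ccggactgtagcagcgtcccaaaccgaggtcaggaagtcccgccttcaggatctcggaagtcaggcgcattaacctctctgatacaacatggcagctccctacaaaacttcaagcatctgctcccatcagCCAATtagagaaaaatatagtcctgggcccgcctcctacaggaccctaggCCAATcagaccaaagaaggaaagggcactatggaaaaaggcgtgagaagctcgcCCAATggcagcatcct

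The Ndufv2 window was 68.0% G or C and held 2 GC boxes, which begin 159 and 100 bases before the start. The Ndufs8 window was 53.2% G or C and held 3 CCAAT boxes, which begin 120, 70 and 16 bases before the start. The 5 motifs searched on both strands were chosen after the values were seen, and none contains another. RefSeq gave promoters for 40 of the 49 genes. The palindromic motif of the factor NRF1 (GCGCA, any base, then GCGC) was found in 17.5% of these genes, against 9.48% of the genes tested and 3.74% of all promoters. The GC box was found in 47.5%, against 64.6% of the genes tested and 32.7% of all promoters, and CCAAT in 35.0%, against 40.8% and 33.8%. The CRE letters TGACGTCA were found in 7.5%, against 3.27% and 1.55%, and the ETS letters CCGGAAGT in 0 of the 40, against 6.79% and 2.88%. Of the 7 genes with the NRF1 motif (Ndufa5, Ndufa8, Ndufa11, Ndufb4, Ndufs5, Ndufs6 and Ndufaf4), 1 rose after each lesion, Ndufa11. Over all genes tested 13.1% (SCL) and 15.2% (ECL) were called higher. Of the 33 genes without the motif, 13 rose after SCL, and 12 rose and 5 fell after ECL. A relation between motif and change was not tested.

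Ndufs3, a structural core subunit of the ubiquinone module, was at 180, 147, 130, 137 and 123 CPM in controls, at 299, 199, 215 and 175 CPM after SCL, and at 294, 204, 186 and 176 CPM after ECL. The lowest library of each lesion lay below the highest control. Its log2 fold change was 0.64 (SE 0.17, edgeR adjusted p = 0.0175) after SCL and 0.60 (SE 0.17, edgeR adjusted p = 0.0190) after ECL. With the offset it was 0.32 (edgeR adjusted p = 0.150) and 0.27 (edgeR adjusted p = 0.221) and no longer called. The flavin-binding Ndufv1 rose by 0.53 and 0.55 on the log2 scale (edgeR adjusted p = 0.0468 and 0.0435). It was at 75.4 to 142 CPM in controls, 146 to 195 CPM after SCL and 130 to 207 CPM after ECL. Its calls were kept in only 11 (SCL) and 10 (ECL) of the 22 alternatives. Ndufs7, which passes electrons to ubiquinone, was at 140, 150, 120, 80.6 and 108 CPM in controls and at 213, 158, 204 and 156 CPM after ECL. Its log2 fold change was 0.62 after ECL (SE 0.18, edgeR adjusted p = 0.0215) and 0.44 after SCL (edgeR adjusted p = 0.101). Ndufs1, which carries iron-sulfur clusters in the module that takes up NADH, gave log2 fold changes of 0.06 after SCL and -0.11 after ECL and was not called.

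**Figure D3:**
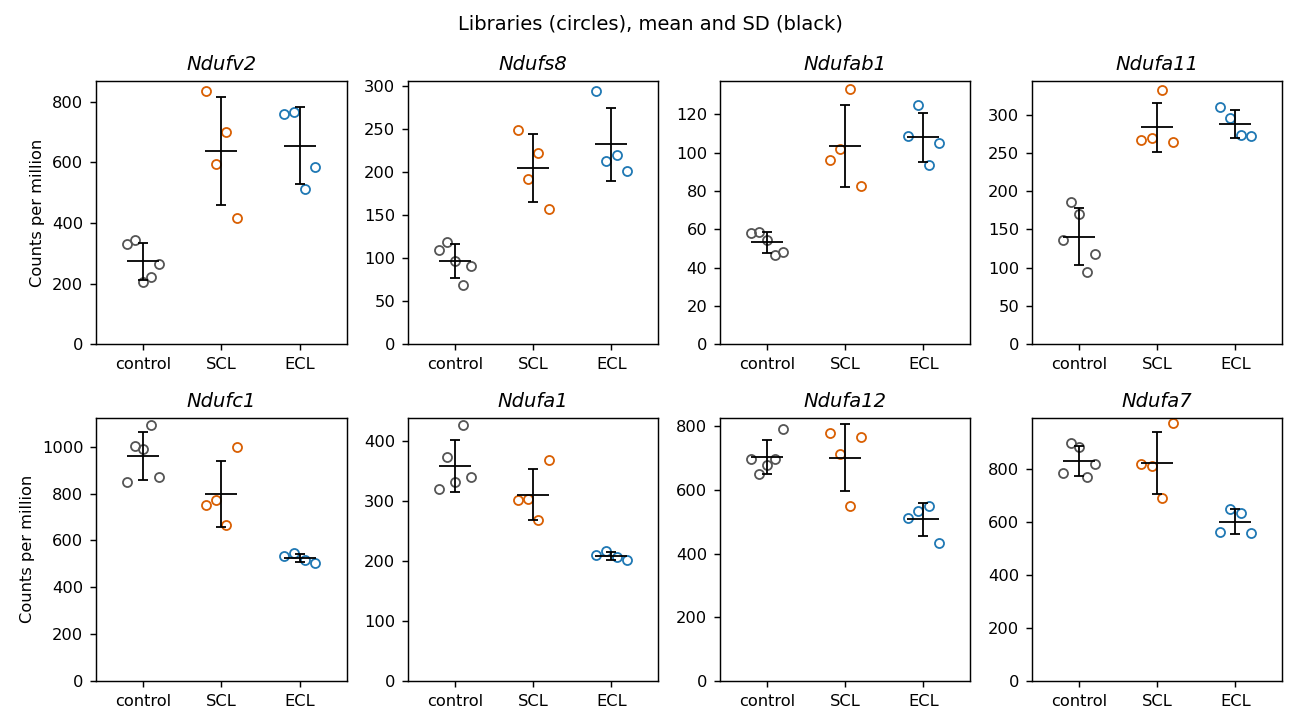
CPM (vertical axis, from 0) of 8 genes in every library by group, with the mean and SD in black. In the top row all SCL and ECL libraries of Ndufv2, Ndufs8, Ndufab1 and Ndufa11 lie above the controls, and in the bottom row the ECL libraries of Ndufc1, Ndufa1, Ndufa12 and Ndufa7 lie below all controls and all SCL libraries.

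Of the 9 accessory subunits of the peripheral arm, 1 was higher and 3 were lower after ECL, where 15.2% and 12.5% of all genes were so called. After SCL 2 were higher and 0 lower, where 13.1% and 11.8% of all genes were. Ndufs4, needed to complete the module that takes up NADH, was at 181, 195, 194, 132 and 165 CPM in controls, at 236, 232, 314 and 257 CPM after SCL, and at 227, 340, 263 and 265 CPM after ECL. No lesioned library overlapped the controls. The log2 fold change was 0.58 (SE 0.15, edgeR adjusted p = 0.0162) and 0.67 (SE 0.16, edgeR adjusted p = 0.00725). Ndufa9, a subunit next to the ubiquinone site, was at 136, 122, 95.9, 144 and 141 CPM in controls and at 261, 171, 157 and 144 CPM after SCL (0.52, SE 0.18, edgeR adjusted p = 0.0494). Its highest control and lowest SCL library, both near 144 CPM, almost touched. This call was kept in only 7 of the 22 alternatives, and the value was 0.31 without SCL replicate 1 (edgeR adjusted p = 0.154).

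The members of this arm that fell after ECL were Ndufa7, Ndufa12 and Ndufv3. Ndufa7 was at 784, 900, 883, 773 and 819 CPM in controls, at 818, 813, 690 and 974 CPM after SCL, and at 564, 648, 635 and 558 CPM after ECL. The ECL libraries lay below all others, while the SCL libraries spread around the controls. Relative to controls the log2 fold change was -0.46 (SE 0.13, edgeR adjusted p = 0.0183) after ECL and -0.01 (SE 0.14) after SCL. Ndufa12, which takes the place of the assembly factor Ndufaf2 in the finished arm, was at 697, 652, 680, 698 and 792 CPM in controls, at 780, 713, 549 and 767 CPM after SCL, and at 513, 535, 548 and 434 CPM after ECL. The log2 fold change after ECL was -0.46 (SE 0.13, edgeR adjusted p = 0.0194), and SCL replicate 3 lay close to the highest ECL library. The count of Ndufa12 is uncertain, because 88.6% of its 100-base stretches are unique and the near copy Ndufa12-ps had a mean of 584 CPM in controls, with -0.36 after ECL (edgeR adjusted p = 0.0559). Ndufv3 was at 602, 652, 625, 586 and 627 CPM in controls, at 531, 528, 570 and 646 CPM after SCL, and at 455, 486, 526 and 434 CPM after ECL. All ECL libraries were below all controls (-0.37, SE 0.13, edgeR adjusted p = 0.0407), but this call was kept in only 8 of the 22 alternatives.

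In the part of the membrane arm next to the peripheral arm, 3 of 9 accessory subunits rose after each lesion. Of all genes 13.1% (SCL) and 15.2% (ECL) did so, and of short genes 27.9% and 33.8%, so this share is near that of short genes. After ECL 2 of the 9 fell, where 12.5% of all genes and 8.41% of short genes did. Ndufa11, a membrane protein that holds the arm together, was at 137, 186, 170, 94.3 and 117 CPM in controls. It was at 268, 269, 332 and 265 CPM after SCL and at 311, 296, 274 and 272 CPM after ECL, all above the highest control. On the log2 scale the difference from controls was 1.01 (SE 0.19, edgeR adjusted p = 0.00417) and 1.04 (SE 0.18, edgeR adjusted p = 0.00123), and 0.59 and 0.51 with the length and GC offset.

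Ndufa10, which resembles a nucleoside kinase, was at 216, 209, 190, 168 and 168 CPM in controls, at 316, 232, 269 and 214 CPM after SCL, and at 380, 228, 283 and 242 CPM after ECL. The lowest SCL library lay just under the highest control, and no ECL library did. Its log2 fold change was 0.44 (SE 0.15, edgeR adjusted p = 0.0458) and 0.59 (SE 0.16, edgeR adjusted p = 0.0173). The call after SCL was kept in only 7 of the 22 alternatives, that after ECL in 19. Ndufc2 was at 466, 530, 564, 412 and 466 CPM in controls and at 598, 1018, 635 and 703 CPM after ECL (0.61, SE 0.17, edgeR adjusted p = 0.0183). ECL replicate 2 was well above the others. Ndufa3 was at 300, 401, 355, 211 and 256 CPM in controls, at 388, 428, 487 and 471 CPM after SCL, and at 310, 321, 345 and 348 CPM after ECL. Only the SCL value passed the test (0.54, SE 0.18, edgeR adjusted p = 0.0474), and it was 0.11 with the length and GC offset.

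Ndufa1, a short membrane subunit encoded on the X chromosome and needed for assembly, was at 319, 373, 332, 427 and 340 CPM in controls, at 302, 303, 268 and 368 CPM after SCL, and at 210, 217, 207 and 201 CPM after ECL. The ECL libraries lay close together and below all others. The log2 fold change was -0.77 (SE 0.13, edgeR adjusted p = 0.00101) after ECL and -0.21 (SE 0.14, edgeR adjusted p = 0.290) after SCL. Ndufc1, another small membrane subunit, was at 850, 1004, 992, 1095 and 871 CPM in controls, at 753, 775, 667 and 998 CPM after SCL, and at 533, 545, 515 and 504 CPM after ECL. Here too the ECL libraries formed a tight group below all others. Its log2 fold change was -0.87 (SE 0.13, edgeR adjusted p = 0.000608) after ECL and -0.27 (SE 0.15, edgeR adjusted p = 0.213) after SCL. With the offset both were called lower after both lesions, Ndufa1 at -0.56 and -1.13 and Ndufc1 at -0.59 and -1.22.

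In the far part of the membrane arm, 2 of 10 accessory subunits rose after each lesion and 0 fell. This share is close to the 13.1% (SCL) and 15.2% (ECL) of all genes called higher and below the 27.9% and 33.8% of short genes. Ndufb10 was at 508, 542, 491, 482 and 419 CPM in controls, at 767, 663, 796 and 618 CPM after SCL, and at 744, 856, 804 and 683 CPM after ECL, with no overlap. The log2 fold change was 0.54 (SE 0.14, edgeR adjusted p = 0.0139) and 0.67 (SE 0.13, edgeR adjusted p = 0.00284), but 0.10 and 0.16 with the offset. Ndufb7 was at 344, 428, 423, 340 and 358 CPM in controls and at 544, 514, 571 and 520 CPM after SCL. It rose by 0.50 after SCL (SE 0.13, edgeR adjusted p = 0.0160), with the value 0.36 after ECL (edgeR adjusted p = 0.0572). Ndufb9 was at 250, 290, 281, 218 and 219 CPM in controls and at 312, 375, 318 and 321 CPM after ECL (0.41, SE 0.14, edgeR adjusted p = 0.0409). With the offset its value after ECL was -0.14 (edgeR adjusted p = 0.375), without ECL replicate 2 it was 0.35 (edgeR adjusted p = 0.114), and 19.5% of its exon bases also belong to Gm49356. Ndufb1 is counted under the symbol Ndufb1-ps and so was left out by the rule. It gave 0.53 after SCL (edgeR adjusted p = 0.0250) and -0.04 after ECL.

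Ndufab1, the mitochondrial acyl carrier protein, sits in both the matrix and the membrane part of the enzyme and serves fatty acid and lipoic acid synthesis besides. It was at 58.2, 58.5, 54.6, 46.5 and 48.0 CPM in controls, at 96.3, 102, 133 and 82.5 CPM after SCL, and at 109, 125, 93.7 and 105 CPM after ECL. No lesioned library overlapped the controls. In log2 terms the change was 0.96 (SE 0.15, edgeR adjusted p = 0.00213) after SCL and 1.03 (SE 0.14, edgeR adjusted p = 0.000283) after ECL, and with the offset 1.04 and 1.14. Of its 100-base stretches 93.0% are unique, and the copy Ndufab1-ps, left out by the rule, rose from a mean of 9.30 CPM in controls to 25.2 after SCL and 29.4 after ECL.

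Of the 8 Ndufaf assembly factors, 3 rose after both lesions. Of all genes 13.1% (SCL) and 15.2% (ECL) were called higher, and of short genes 27.9% and 33.8%. The log2 fold changes of all 8 Ndufaf genes were above 0 in both comparisons. With the length and GC offset 0 of the 8 were called after SCL and Ndufaf3 alone after ECL (0.41, edgeR adjusted p = 0.0448), and Ndufaf1, Ndufaf2 and Ndufaf5 were below 0 after SCL. Ndufaf3, which works with Ndufaf4 on the ubiquinone module, was at 45.2, 57.9, 45.8, 32.9 and 29.2 CPM in controls, at 77.4, 65.9, 69.7 and 63.5 CPM after SCL, and at 87.1, 61.8, 75.7 and 69.4 CPM after ECL. All lesioned libraries were above the controls (0.71, SE 0.19, edgeR adjusted p = 0.0188, and 0.81, SE 0.20, edgeR adjusted p = 0.00843). Ndufaf8, which stabilizes Ndufaf5, was at 29.6, 40.5, 36.6, 14.7 and 21.7 CPM in controls, at 58.8, 52.8, 48.9 and 46.0 CPM after SCL, and at 53.8, 44.0, 70.4 and 51.6 CPM after ECL. It rose by 0.85 (SE 0.25, edgeR adjusted p = 0.0271) and 0.95 (SE 0.25, edgeR adjusted p = 0.0138), with control replicate 4 the lowest library.

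Ndufaf6, an early assembly factor, was at 14.2, 21.5, 11.4, 14.1 and 18.7 CPM in controls, at 35.97, 24.0, 23.2 and 19.7 CPM after SCL, and at 41.4, 20.8, 23.8 and 22.0 CPM after ECL. It overlapped the controls after each lesion (0.69, SE 0.23, edgeR adjusted p = 0.0426, and 0.77, SE 0.25, edgeR adjusted p = 0.0340). Neither call held without replicate 1 of its lesion, with 0.48 (edgeR adjusted p = 0.150) after SCL and 0.49 (edgeR adjusted p = 0.143) after ECL. The other 5 (Ndufaf1, Ndufaf2, Ndufaf4, Ndufaf5 and Ndufaf7) were not called, with log2 fold changes of 0.09 to 0.35 for SCL and 0.23 to 0.41 for ECL. Ndufaf2 is uncertain, since 65.6% of its exon bases overlap a gene on the other strand and the counting did not use strand.

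The remaining genes tested were called in neither comparison. Ndufa4 gave 0.29 and 0.15, and the extra copies Ndufb4c and Ndufs6b gave 0.43 and 0.12 after SCL and 0.34 and -0.01 after ECL. No 100-base stretch of Ndufb4c is unique against Ndufb4. Ndufa13, a membrane subunit also known as Grim19, gave 0.69 after SCL (edgeR adjusted p = 0.0506) and 0.55 after ECL (edgeR adjusted p = 0.103), with controls from 352 to 937 CPM and 30.0% of its exon bases shared with Tssk6. Neither Ndufa4l2 nor Ndufa11b reached the minimum. The controls of Ndufa4l2 were between 0.134 and 2.11 CPM, the SCL libraries between 2.37 and 7.10 and the ECL libraries between 2.88 and 4.83. Those of Ndufa11b were between 0.655 and 2.11, between 2.90 and 4.32, and between 2.21 and 3.75 CPM.

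ECL was also compared with SCL directly. No gene was called (edgeR, 0 of 12232 genes, 0.0%), and 897 genes, or 7.33%, had an unadjusted p below 0.05. Among the complex I genes 7 of 47 did so, all lower after ECL: Ndufa1, Ndufc1, Ndufa12, Ndufa7, Ndufa3, Ndufb2 and Ndufb4. In 8 genes, these 7 and Ndufv3, all ECL libraries lay below all SCL libraries, as 2.27% of all genes tested did. The log2 difference between the lesions was -0.57 (SE 0.13, edgeR adjusted p = 0.384) for Ndufa1 and -0.60 (SE 0.15, edgeR adjusted p = 0.460) for Ndufc1. DESeq2 called 62 genes, 0.507% of those tested, and among them Ndufa1, Ndufb2 and Ndufc1 as lower. Without SCL replicate 3 edgeR called 54 genes and without ECL replicate 4 it called 2, in both cases with 0 complex I genes among them. Ndufv2 differed by 0.05 with a 95% interval (from the SE) of -0.38 to 0.48, and Ndufs8 by 0.19 with an interval of -0.15 to 0.53.

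Library by library, the median subunit gene lay between -0.16 and 0.14 in the controls on the log2 scale relative to the control mean. In the SCL libraries it lay between 0.25 and 0.49 and in the ECL libraries between 0.25 and 0.34. Control replicates 4 and 5 had the lowest medians of the controls. No lesioned library overlapped the controls, yet in every lesioned library some subunit genes lay below 0, down to -0.93 in ECL replicate 4. The controls reached down to -0.90, in control replicate 4. These library values hold no length and GC offset. Over the shortest 25% of all genes tested the median log2 fold change was 0.29 after SCL and 0.33 after ECL. With the offset the subunit median was 0.09 and -0.03.

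**Figure D4:**
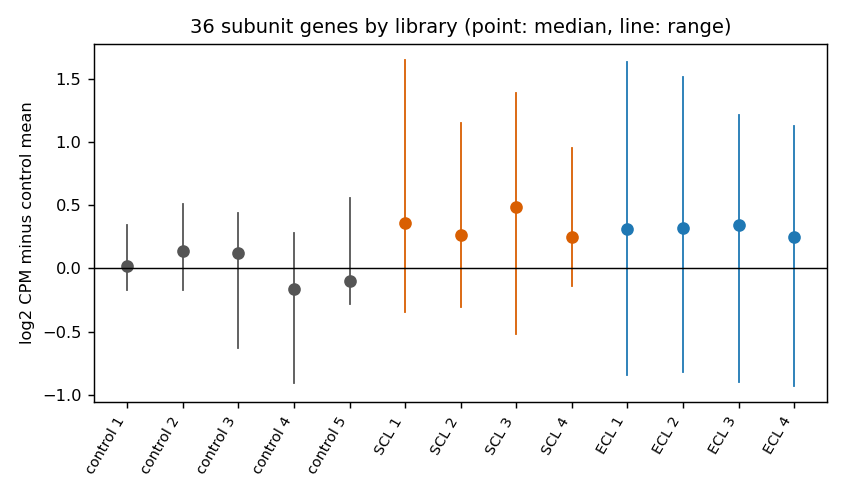
Log2 CPM relative to the control mean (vertical axis) over the 36 subunit genes in each of the 13 libraries, as the median (point) and the full range (line). Medians are between 0.25 and 0.49 in lesioned libraries and at most 0.14 in controls, and the ranges of the ECL libraries reach -0.82 or lower. No length and GC offset was applied.

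Levels between genes were compared per kilobase of exon. In controls they ran from 1284 ± 136 CPM per kb (SD, n = 5) for Ndufa2, a small subunit of the peripheral arm (by the longest transcript Ndufa7 was higher, at 1300.0), to 0.994 ± 0.776 for Ndufa4l2. Among the subunits the lowest were Ndufab1 at 7.72 ± 0.818 and Ndufb2 at 8.22 ± 1.16, whose SDs overlap. Next to Ndufa2 came Ndufa1 at 855 ± 104, Ndufa4 at 673 ± 76.8, Ndufc2 at 647 ± 79.1 and Ndufc1 at 644 ± 68.0, and the last 3 did not differ beyond their spread. The core subunits lay between 15.0 for Ndufs1 and 127 for Ndufv2, and the assembly factors between 12.9 for Ndufaf6 and 34.3 for Ndufaf8. These levels rest on all annotated exons of a gene, and the order changed when the longest transcript was used. Ndufa7, at 455 by all exons, then stood above Ndufa2, at 1284, Ndufb2 at 10.6 was lower than Ndufab1 at 15.3, and Ndufs1 stood at 45.7.

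**Figure D5:**
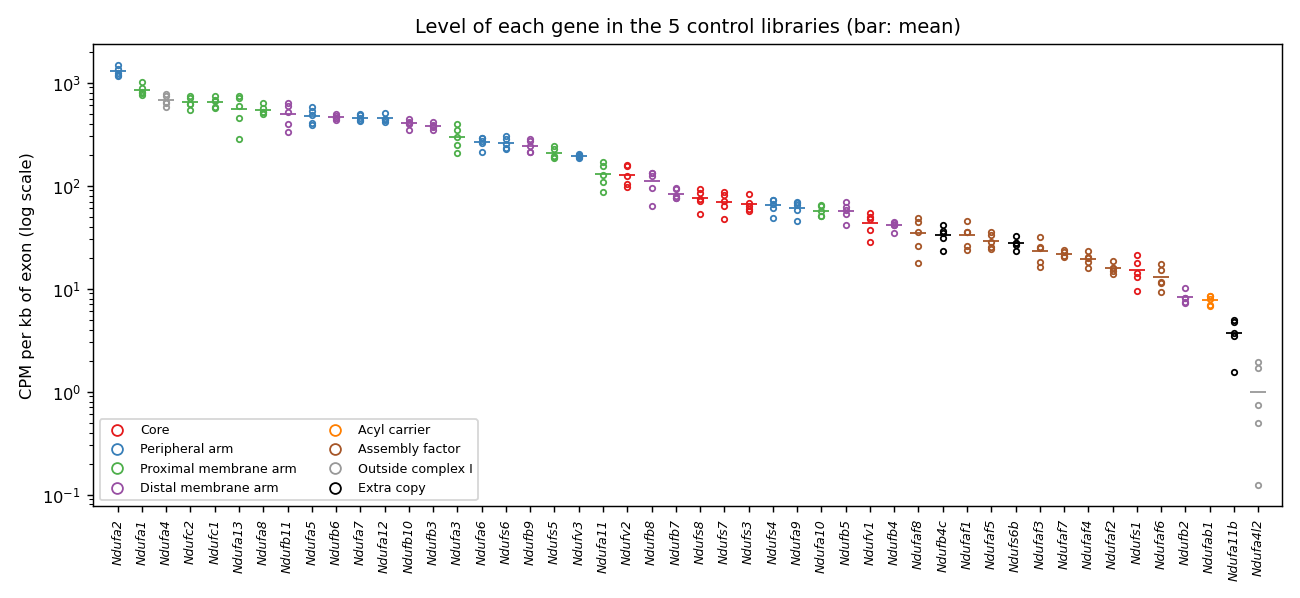
Level of 48 of the genes in the 5 control libraries as CPM per kilobase of exon (vertical axis, log scale), ordered by mean and colored by role. The order runs from Ndufa2 at 1284 to Ndufa4l2 at 0.994, with accessory membrane and peripheral subunits mostly above the core subunits and the assembly factors.

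The spread between controls differed widely as well. The coefficient of variation was 4.07% for Ndufv3, but 34.7% for Ndufa13 and 36.8% for Ndufaf8.

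Other genes tied to the complex did not share a direction. Of the 7 mt-Nd genes 6 were tested, 0 rose and 1 fell after each lesion, where 11.8% (SCL) and 12.5% (ECL) of all genes were called lower. mt-Nd3 was at 11.4, 6.32, 13.8, 16.3 and 6.05 CPM in controls, at 2.56, 2.48, 4.99 and 5.22 CPM after SCL, and at 3.73, 5.87, 2.40 and 4.66 CPM after ECL (-1.51, SE 0.37, edgeR adjusted p = 0.0122, and -1.36, SE 0.35, edgeR adjusted p = 0.0117). The abundant mt-Nd1, mt-Nd2, mt-Nd4, mt-Nd5 and mt-Nd6, with control means from 1364 to 2810 CPM, gave values between -0.44 and 0.30 and were not called. Libraries were made from polyadenylated RNA, in which mitochondrial transcripts are only partly represented. The counting did not use strand, so the counts of an mt-Nd gene, mt-Nd6 among them, can hold reads from the opposite strand.

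Of 13 other assembly factors tested, 4 rose after SCL and 4 after ECL, where 13.1% and 15.2% of all genes were called higher. After ECL 1 of the 13 fell, where 12.5% of all genes were called lower. Dmac1, which builds the far membrane arm, rose by 1.02 (SE 0.17, edgeR adjusted p = 0.00243) and 1.34 (SE 0.14, edgeR adjusted p = 7.36e-05). Acad9 rose by 0.77 after each lesion, Tmem70 by 0.68 and 0.64, Tmem126a by 0.51 after SCL and Dmac2 by 0.55 after ECL. Timmdc1, a membrane arm factor, fell after ECL by 2.17 on the log2 scale (SE 0.38, edgeR adjusted p = 0.00121), from a mean of 45.2 CPM in controls to 9.98 CPM, and stood at 21.1 CPM after SCL (-1.09, SE 0.43, edgeR adjusted p = 0.0792).

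Of 10 regulators of mitochondrial biogenesis tested, 0 rose, 1 fell after SCL and 3 fell after ECL, where 11.8% and 12.5% of all genes were called lower. The SCL count is thus no higher than the share of all genes. Ppargc1a, the coactivator PGC-1alpha, fell by 0.45 on the log2 scale (SE 0.13, edgeR adjusted p = 0.0223) and by 0.50 (SE 0.14, edgeR adjusted p = 0.0202). Yy1 fell after ECL by 0.60 (SE 0.15, edgeR adjusted p = 0.00887) and Tfam, which maintains mitochondrial DNA, by 0.54 (SE 0.18, edgeR adjusted p = 0.0390). Nrf1 and Gabpa were not called, with values of 0.29 and -0.05 after SCL and 0.38 and 0.04 after ECL.

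Cell type markers moved too. Of all genes tested, 13.1% (SCL) and 15.2% (ECL) were called higher, and 11.8% and 12.5% lower. All 10 microglia markers rose after SCL and 7 of 10 after ECL, and their summed level went from 514 to 613 CPM in controls to 1026 to 2294 after SCL and 1216 to 1629 after ECL. Of 6 astrocyte markers 3 rose after SCL and 2 after ECL, of 6 oligodendrocyte markers 2 rose after each lesion, and of 5 neuron markers 1 fell after SCL and 2 after ECL. Of 5 CA1 markers 1, Pou3f1, fell after SCL, and the tested dentate marker Prox1 was not called. Flt1, the endothelial marker tested of 4, fell after both lesions. The falls among neuron and CA1 markers rest on 1 or 2 genes per list. The summed astrocyte, oligodendrocyte and neuron levels overlapped between all groups, and no marker of these lists was at 0 in all libraries. The part of these markers in the complex I values was not tested, and in whole CA1 tissue fewer cells of a type and less RNA per cell cannot be told apart.

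The scaling changed the counts of calls as well. With TMM factors over all symbols instead of those tested, the median of all genes became 0.21 in place of 0.01 for SCL and 0.18 in place of -0.01 for ECL. For SCL this scaling gave 28 complex I genes that were higher and 0 lower, and for ECL 23 and 2. Of all genes tested, 27.2% (SCL) and 27.9% (ECL) were then called in either direction. Without any minimum the numbers were 26 and 0 for SCL and 25 and 2 for ECL. Here 11.2% of 48069 genes (SCL) and 16.8% of 47784 genes (ECL) were called. With the minimum of filterByExpr the numbers were 20 and 0, and 19 and 3, where 16.6% and 22.1% of all genes were called. For these scalings and minimums the share of all genes called higher alone is not given. The counts of higher complex I genes thus cannot be set against it. The number that rose after SCL was 15 with all libraries, but 9 when control replicate 5 was left out. It was 8, 9 and 8 when SCL replicates 1, 2 or 3 were left out in turn. The share of all genes called was 24.9% with all libraries, and 19.3%, 17.4%, 17.3% and 15.0% in these 4 fits. After ECL, 2 instead of 5 were lower without ECL replicate 4, where 18.8% instead of 27.8% of all genes were called.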

How the data were processed

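Counts of 13 CA1 libraries were analysed, 5 control, 4 SCL and 4 ECL. The authors trimmed paired reads of 150 bp with cutadapt 3.5, mapped them to mm10 with STAR 2.7.8a and assigned them to GENCODE M25 genes with featureCounts 2.0.1 without regard to strand, and the deposited counts are raw whole numbers. Tool versions are those of the submitters' processing notes. In each library 63.0% to 74.3% of the counts from 1 to 20 were even, so both mates of a pair seem to have been counted. No batch is given. Sex markers matched the column headings in 13 of 13 libraries.

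Exon length, GC content and overlaps were taken from GENCODE M21, in which all 49 genes were found, and promoters from RefSeq (GRCm38.p6). R 4.3.3 and edgeR 4.0.16 fitted each comparison alone (quasi-likelihood, glmQLFit and glmQLFTest, two-sided, Benjamini-Hochberg, threshold 0.05), over genes whose normalized counts averaged 150 or more, with TMM factors over these. SE was obtained as the size of the log2 fold change over the root of the F statistic. CPM for display were scaled over all 13 libraries. Biological variation between libraries (edgeR's coefficient) came to 0.241 in the SCL fit, 0.237 in the ECL fit and 0.221 between the lesions. The offset was fitted with mgcv 1.9.3. DESeq2 1.42.0, other scalings, filters, terms and leaving out each library served as alternatives. The code was tested on simulated data.

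Roles and lists were written by hand: core, peripheral arm, near and far membrane arm and acyl carrier subunits, Ndufaf genes, mt-Nd genes, other assembly factors, biogenesis regulators, and markers of neurons, CA1, dentate gyrus, microglia, astrocytes, oligodendrocytes and endothelium. The genes and lists were chosen with earlier results of these data known, and the extra copies were set apart after the values were seen. Values in every library are given for up to 3 called genes per role and lesion with the smallest adjusted p-value and for every gene that fell. Ndufa13 and a few others outside that rule were named after their values were seen. Counts and medians hold all genes of the rule, of which 1 is not reported here by name or shown in the plots of single genes.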

Additional observations from a re-analysis of the deposited data

Results flagged for a closer look

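In 60 groups of libraries, those of each gene whose values are given in every library, the highest or lowest library was compared with the others by Dixon's gap test at the 95% level. The test singled out 5 groups, and chance gives about 1 in 20 of such groups. Ndufa11 was at 332.2 CPM in SCL replicate 3, with 264.8 to 269.0 CPM in the other SCL libraries. Ndufa9 was at 255.3 CPM in ECL replicate 1, with 133.0 to 140.6 CPM in the others, and Ndufaf6 at 41.39 CPM in the same library, with 20.81 to 23.78 CPM in the others. Ndufb9 was at 337.2 CPM in SCL replicate 3, with 250.7 to 257.2 CPM in the others, and at 374.6 CPM in ECL replicate 2, with 311.7 to 320.7 CPM in the others. Without SCL replicate 3 the rise of Ndufa11 kept its call, at 0.93 on the log2 scale (edgeR adjusted p = 0.0156). Without ECL replicate 1 the rise of Ndufaf6 after ECL lost its call, at 0.49 in place of 0.77 (edgeR adjusted p = 0.143), and without ECL replicate 2 that of Ndufb9 did so, at 0.35 in place of 0.41 (edgeR adjusted p = 0.114). Ndufa9 after ECL and Ndufb9 after SCL were not called with all libraries.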

How the results depend on the processing

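The number of complex I genes that rose after SCL was 28 with TMM factors over all symbols, 26 without a minimum, 5 with the length and GC offset (with or without the replicate block), 4 at an adjusted p of 0.01, and 8 with a replicate block by the number each column heading carries, an alternative chosen after seeing the data. The offset alone called 6 lower after SCL, and 4 together with the block. The subunit median after SCL was 0.571 with either of the first settings, 0.088 with the offset and 0.042 with offset and block. After ECL the number that rose was 23 with TMM over all symbols, 25 without a minimum, 7 with the offset, 5 with offset and block, and 7 at 0.01. The number that fell was 2 in the first pair, 3 with filterByExpr, 3 with the replicate block, 3 with a sex term, 2 with the number in the headings as a block, 2 at 0.01, and 11 with the offset with or without the block. The subunit median after ECL was 0.515 with TMM over all symbols or no minimum, but -0.031 with the offset and -0.078 with offset and block. Ndufb9 after ECL reversed to -0.14 and -0.18 in these last fits. Between the lesions DESeq2 called 3 genes lower. Leaving out 1 library in turn gave 8 to 15 higher after SCL, and 10 to 16 higher and 2 to 5 lower after ECL. The share of all genes called was then 15.0% to 24.2% (SCL) and 18.8% to 27.2% (ECL), and 24.9% and 27.8% with all libraries. It was 20.1% and 23.6% with the replicate block, and 20.5% and 25.5% with offset and block. With the number in the headings it was 15.9% and 20.4%, and with a sex term 22.6% and 21.1%. For an adjusted p of 0.01 the share is not given. With the replicate block 12 rose after SCL and 13 after ECL, and only some same-numbered pairs deviated together, with correlations from -0.145 to 0.533 for the replicate numbers and -0.385 to 0.533 for those in the headings, so the numbers were not taken to pair the libraries. The cause of these changes was not tested. DESeq2, RLE scaling, the single fit and halved counts kept every count of calls against controls within 1.5 times. Fold changes near the spread between 4 or 5 cultures could not be resolved, and Ndufa4l2 and Ndufa11b were too low to test at this depth.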
